A study of Mus musculus with 2 samples.

Results

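Genes of the CSF1 receptor, its ligands and related haematopoietic cytokine receptors, 6 in all, were followed across 2 brain sections: Csf1, Il34, Csf1r, Csf2ra, Csf2rb and Csf3r. They were taken by symbol from the 19070 genes of the probe set, where each of the 6 symbols had 1 row, and the rule used no measured value. Each section came from a male C57Bl6 mouse (substrain J in the study methods) of 3 months that had received a controlled cortical impact (CCI), a piston injury to the exposed cortex over the right parietal lobe, and was taken either 3 days or 28 days later. The brains were perfusion fixed and embedded in paraffin, and transcripts were captured in place with Visium HD, which counts unique molecular identifiers (UMIs) of probe pairs in square bins, here of 16 µm. There was 1 section per time point, and sections of sham-operated mice were not analysed here, so the side opposite the impact of the same brain was the reference.

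CSF1R is the receptor tyrosine kinase on which microglia and most tissue macrophages depend for survival and proliferation. It has a pair of unrelated ligands, CSF1 and IL-34, and in the healthy brain IL-34 is made largely by neurons and CSF1 largely by glia, so that microglia of different regions rely on different ligands. CSF2RA is the ligand-binding chain of the GM-CSF receptor, CSF2RB is the signalling chain that it shares with the receptors for IL-3 and IL-5, and CSF3R is the G-CSF receptor, best known from neutrophils.

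The sections held 120615873 UMIs in 121967 bins at 3 days and 82422389 UMIs in 105589 bins at 28 days, and bins with fewer than 100 UMIs, 1.93% and 2.15% of them, were left out. A bin covers parts of several cells, and 84781 bin positions were occupied in both sections. The injured side was every column below 130 at 3 days and below 240 at 28 days. The array did not frame the sides alike. At 3 days cortex-labelled areas held 9.72% of UMIs on the injured side and 39.3% on the opposite side, and the zone of the lesion ran into the edge of the array in 34 of its tiles (squares of 4 by 4 bins, 64 µm). At 28 days the shares were 22.2% and 29.8%. The lesion zone was the part of the injured side with the highest summed level of 6 phagocyte genes (Cd68, Lyz2, Ctsz, Lgals3, Cd52 and Laptm5), 571 tiles at 3 days and 903 at 28 days. Levels are given as CPM, the usual scaling of UMIs to the total of the area they were summed over, with 95% exact Poisson intervals, and ratios carry 95% exact conditional binomial intervals. All of these cover counting error only and leave out the spread between mice, so no test between conditions was possible. Probes differ between genes, so each gene is compared with itself from place to place.

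**Figure D1:**
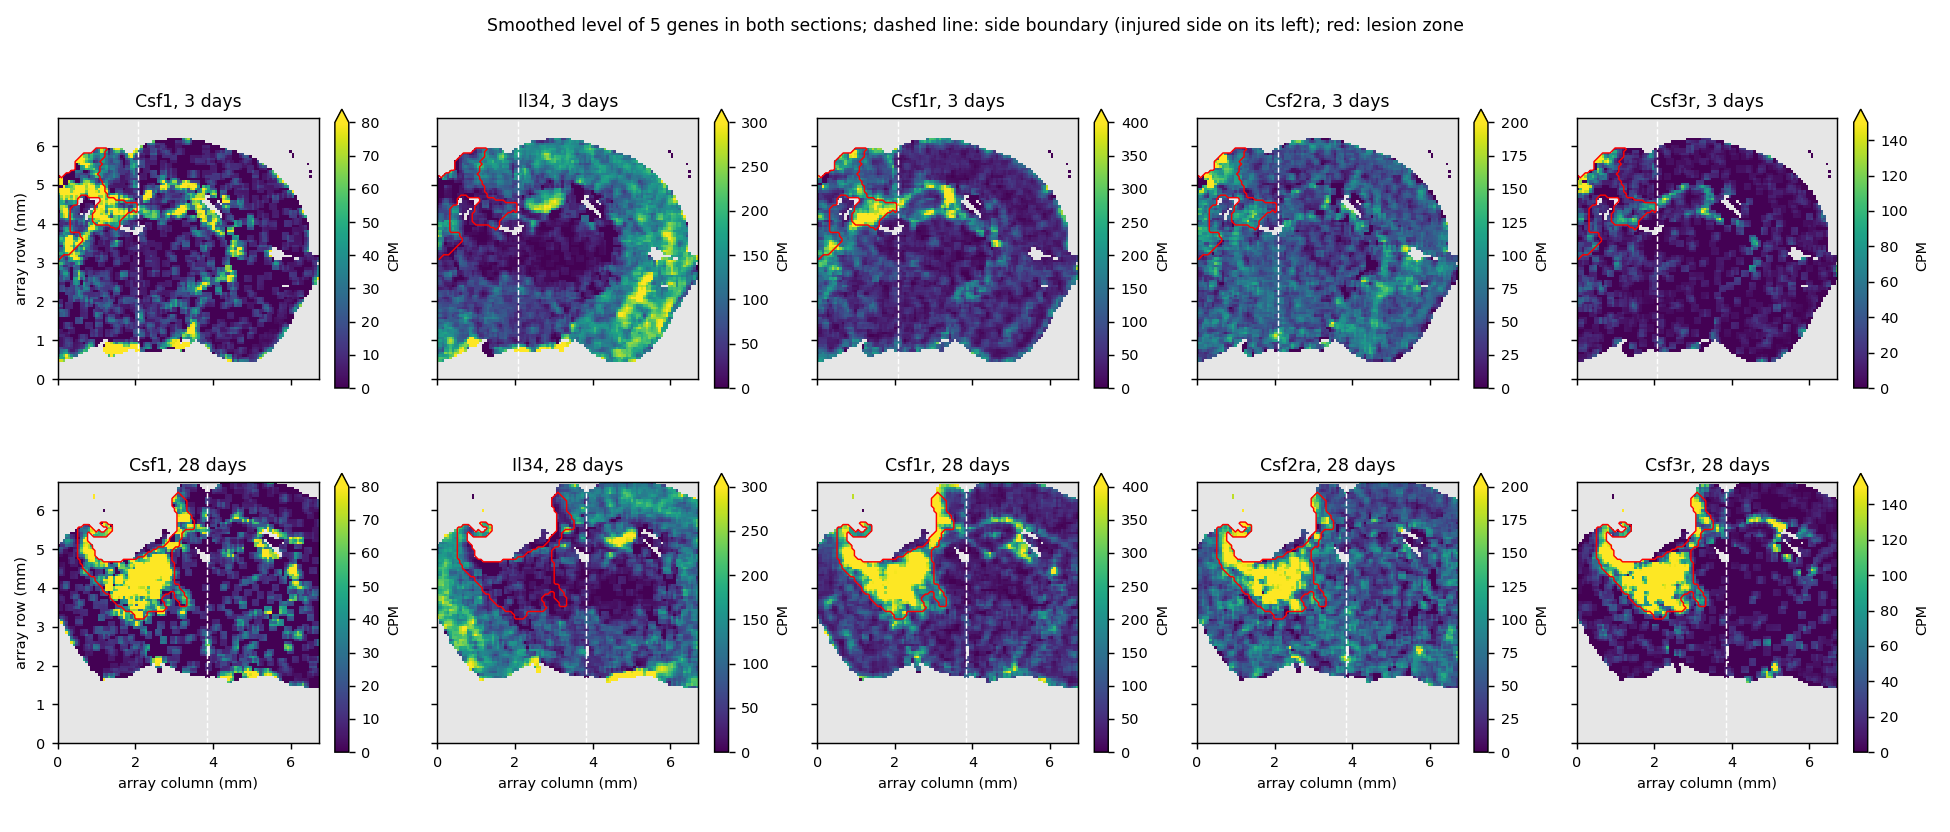
Level of Csf1, Il34, Csf1r, Csf2ra and Csf3r in CPM (colour, averaged over 3 by 3 tiles and capped at the top of each scale) over the array in mm, with dorsal at the top, in the 3-day section (upper row) and the 28-day section (lower row). The dashed line parts the injured side (left) from the opposite side, and the red line encloses the lesion zone. Csf1, Csf1r and Csf3r are bright in the zone and along the white matter, Il34 is bright in cortex and the hippocampal CA fields and dark in thalamus and in the zone.

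The promoters of Csf3r and Csf2ra are shown because these receptors had unlike maps: in CPM, Csf3r followed Csf1r from area to area and Csf2ra did not. The windows run from 250 bases before to 50 after the start site (RefSeq, GRCm38.p6, which is mm10), and capitals mark GAGGAA, the core of the site bound by the myeloid factor PU.1, searched on both strands (TTCCTC on the other). Of the 6 genes, 3 had a window in the table used here. The Csf3r window was chr4:126024409-126024708 on the plus strand and the Csf2ra window chr19:61228369-61228668 on the minus strand.
Csf3r: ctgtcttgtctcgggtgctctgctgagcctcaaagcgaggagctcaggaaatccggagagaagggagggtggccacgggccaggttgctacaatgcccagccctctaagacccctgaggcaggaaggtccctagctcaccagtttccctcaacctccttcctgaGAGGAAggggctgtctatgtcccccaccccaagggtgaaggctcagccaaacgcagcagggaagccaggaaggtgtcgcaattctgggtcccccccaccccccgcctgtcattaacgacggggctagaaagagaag
Csf2ra: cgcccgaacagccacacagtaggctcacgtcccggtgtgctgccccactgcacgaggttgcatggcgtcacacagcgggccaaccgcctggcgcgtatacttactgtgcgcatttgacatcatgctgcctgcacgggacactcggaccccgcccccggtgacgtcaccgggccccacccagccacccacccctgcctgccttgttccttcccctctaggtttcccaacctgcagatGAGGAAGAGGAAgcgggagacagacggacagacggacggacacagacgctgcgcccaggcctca
The Csf3r window held GAGGAA 1 time and the Csf2ra window 2 times in a row, while the window of Csf1 held it 0 times. The motif stood in 28.3% of all 32851 windows, so a match describes the letters and nothing more.

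Anatomical areas were assigned from marker genes and were not checked against histology, and the dentate granule layer rests on 25 tiles at 3 days and 45 at 28 days. Il34 had a sharp map on the opposite side. At 3 days its level was 218 CPM (201 to 236) in the hippocampal CA fields, 177 CPM (160 to 195) in meninges, 176 CPM (170 to 182) in cortical layers 2 to 4, 148 CPM (141 to 154) in deep cortical layers, 132 CPM (121 to 143) in striatum and 91.5 CPM (86.5 to 96.8) in hypothalamus. It was lowest in thalamus, at 17.1 CPM (14.8 to 19.6), in choroid plexus, at 16.6 CPM (7.6 to 31.5), and in the dentate granule layer, at 15.2 CPM (7.85 to 26.5). The high areas were forebrain neuron layers and the meninges, and the low ones included neuron-rich thalamus and dentate gyrus.

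The 28-day section gave nearly the same order. Il34 reached 290 CPM (247 to 338) in meninges, 204.5 CPM (185 to 225) in the CA fields, 134 CPM (125 to 144) in layers 2 to 4, 128 CPM (120 to 136) in deep layers and 118 CPM (107 to 130) in striatum, against 22.3 CPM (19.0 to 26.0) in thalamus. Layers 2 to 4, deep layers and striatum were neighbours in this order at 28 days whose intervals of the ratio included no difference, whereas at 3 days deep layers and striatum differed by a log2 ratio of 0.16 (0.03 to 0.30). The CA fields and the adjacent dentate granule layer, the principal neuron layers of the hippocampus, differed 13.8-fold at 3 days (log2 ratio 3.79, 3.03 to 4.80, from 619 and 12 UMIs) and 6.71-fold at 28 days (2.75, 2.17 to 3.45, from 415 and 23 UMIs). Layers 2 to 4 stood above thalamus by log2 ratios of 3.36 (3.16 to 3.58) and 2.59 (2.34 to 2.84). Counted per bin and not per UMI, these Il34 contrasts were as large or larger, with 3.8 and 2.83 for CA fields over dentate and 4.12 and 3.81 for layers 2 to 4 over thalamus.

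Csf1 was placed differently. On the opposite side at 3 days it was 54.3 CPM (45.3 to 64.5) in white matter, 51.9 CPM (37.3 to 70.4) in the dentate granule layer, 45.4 CPM (26.4 to 72.7) in ependyma and 35.0 CPM (27.7 to 43.5) in meninges. It was 5.41 CPM (4.41 to 6.57) in cortical layers 2 to 4 and 6.63 CPM (5.24 to 8.28) in thalamus. At 28 days white matter held 41.8 CPM (33.2 to 51.9), meninges 43.5 CPM (27.8 to 64.7), layers 2 to 4 5.29 CPM (3.62 to 7.47) and thalamus 7.85 CPM (5.93 to 10.2). The dentate level was 16.9 CPM (8.98 to 28.8) in that section, from 13 UMIs. Neighbours in order among the first 4 areas at 3 days did not differ beyond counting error.

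The height of Csf1 in white matter depended on the scale, because a white matter bin held far fewer UMIs than a cortical one. The log2 ratio of white matter over layers 2 to 4 was 3.32 (2.94 to 3.72) and 2.97 (2.37 to 3.62) in CPM in the 3-day and 28-day sections, but 0.76 (0.37 to 1.15) and 0.33 (-0.27 to 0.98) in UMIs per bin. Per 1000 bins, the dentate granule layer had the highest Csf1 level in both sections, 102.5 UMIs at 3 days and 24.7 UMIs at 28 days.

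The balance of the ligands therefore moved from area to area. On the opposite side at 3 days there were 32.6 Il34 UMIs per Csf1 UMI (26.7 to 40.1) in layers 2 to 4, 24.2 (19.4 to 30.4) in deep layers, 19.3 (13.6 to 28.5) in the CA fields and 19.0 (13.1 to 28.7) in striatum. There were 2.58 (1.97 to 3.39) in thalamus, 0.797 (0.608 to 1.04) in white matter and 0.293 (0.140 to 0.568) in the dentate granule layer. At 28 days the same quantity was 25.3 (17.8 to 37.3) in layers 2 to 4, 31.9 (18.5 to 60.5) in the CA fields, 2.84 (2.08 to 3.92) in thalamus, 1.07 (0.784 to 1.47) in white matter and 1.77 (0.859 to 3.8) in the dentate granule layer. Only its change from place to place can be read, since the probes of the ligands differ. In the lesion zone it was 1.25 (1.07 to 1.47) at 3 days and 0.733 (0.642 to 0.836) in the later section, against 12.6 (11.7 to 13.5) and 10.2 (9.29 to 11.3) over the whole opposite side. That contrast depended on the reference. The zone stood above the 0.797 of opposite white matter at 3 days, and at 28 days the intervals of these places overlapped.

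Csf1r, the receptor of both ligands, was 54.4 CPM (52.8 to 56.0) on the opposite side at 3 days and 54.7 CPM (52.5 to 56.9) at 28 days. By area its CPM was highest in white matter, at 204.3 (186.5 to 223) and 176 (158 to 196), and in meninges, at 142 (127 to 158) and 172 (139 to 210). Cortical layers 2 to 4 had 40.2 CPM (37.4 to 43.2) and 45.3 CPM (40.1 to 51.0), thalamus 37.1 CPM (33.7 to 40.7) and 38.1 CPM (33.7 to 42.9). The excess of white matter over layers 2 to 4 reversed per bin: the log2 ratio was 2.35 (2.18 to 2.51) and 1.96 (1.72 to 2.19) in CPM, and -0.22 (-0.39 to -0.06) and -0.68 (-0.92 to -0.45) in UMIs per bin. Csf1r was thus a larger part of the RNA of white matter than of layers 2 to 4, and not a larger amount per area. Against other areas the order differed: per 1000 bins, white matter held 57.4 Csf1r UMIs at 3 days and 47.7 at 28 days, and thalamus 36.4 and 27.6. At 3 days the dentate granule layer, with 106 CPM (84.8 to 132), and the CA fields, with 68.7 CPM (59.4 to 79.1), stood above their 28-day levels of 29.8 CPM (18.9 to 44.8) and 37.9 CPM (29.9 to 47.4).

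The G-CSF receptor gene Csf3r followed Csf1r. On the opposite side it was 32.6 CPM (25.8 to 40.8) in white matter at 3 days and 44.9 CPM (36.0 to 55.4) at 28 days, and 6.31 CPM (5.23 to 7.56) and 5.95 CPM (4.17 to 8.24) in layers 2 to 4. Per bin that excess was -0.19 (-0.63 to 0.23) in the 3-day section and 0.26 (-0.30 to 0.88) at 28 days on the log2 scale. Csf2rb, with 92 UMIs on the opposite side at 3 days and 44 at 28 days, was too sparse for a full order of areas, and no neighbours in that order differed beyond counting error. In CPM it did stand higher in white matter than in layers 2 to 4, by log2 ratios of 3.12 (1.82 to 4.45) at 3 days, from 12 and 11 UMIs, and 3.36 (1.60 to 6.0) at 28 days, from 11 and 3 UMIs. Per bin these were 0.55 (-0.75 to 1.88) and 0.72 (-1.04 to 3.36). Its near-identical copy Csf2rb2 has probes of its own in the set, but signal of the pair may be split between them, and values of both are uncertain in that respect.

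Csf2ra, the other chain of the GM-CSF receptor, was spread most evenly in CPM, though not per bin, where it ran from 14 to 178 UMIs per 1000 bins at 3 days and Csf1r from 24.1 to 210. In both sections Csf2ra CPM was highest in the habenula, at 103 CPM (74.2 to 140) and 82.4 CPM (59.2 to 112), and in the striatum, at 79.9 CPM (71.5 to 88.9) and 72.4 CPM (63.6 to 82.0). It was 58.2 CPM (54.8 to 61.7) and 50.8 CPM (45.2 to 56.8) in layers 2 to 4, 50.0 CPM (41.4 to 59.9) and 42.3 CPM (33.6 to 52.5) in white matter and 44.1 CPM (40.4 to 48.1) and 48.2 CPM (43.2 to 53.6) in thalamus. The habenula stood above thalamus by log2 ratios of 1.24 (0.73 to 1.69) and 0.79 (0.27 to 1.24), and by 2.06 (1.54 to 2.50) and 1.72 (1.2 to 2.18) per bin. White matter, where Csf1r and Csf3r were highest in CPM, did not differ from layers 2 to 4 in Csf2ra CPM beyond counting error, with -0.21 (-0.50 to 0.06) and -0.26 (-0.63 to 0.09). Per bin Csf2ra was lower in white matter, with -2.78 (-3.07 to -2.51) and -2.90 (-3.27 to -2.55).

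**Figure D2:**
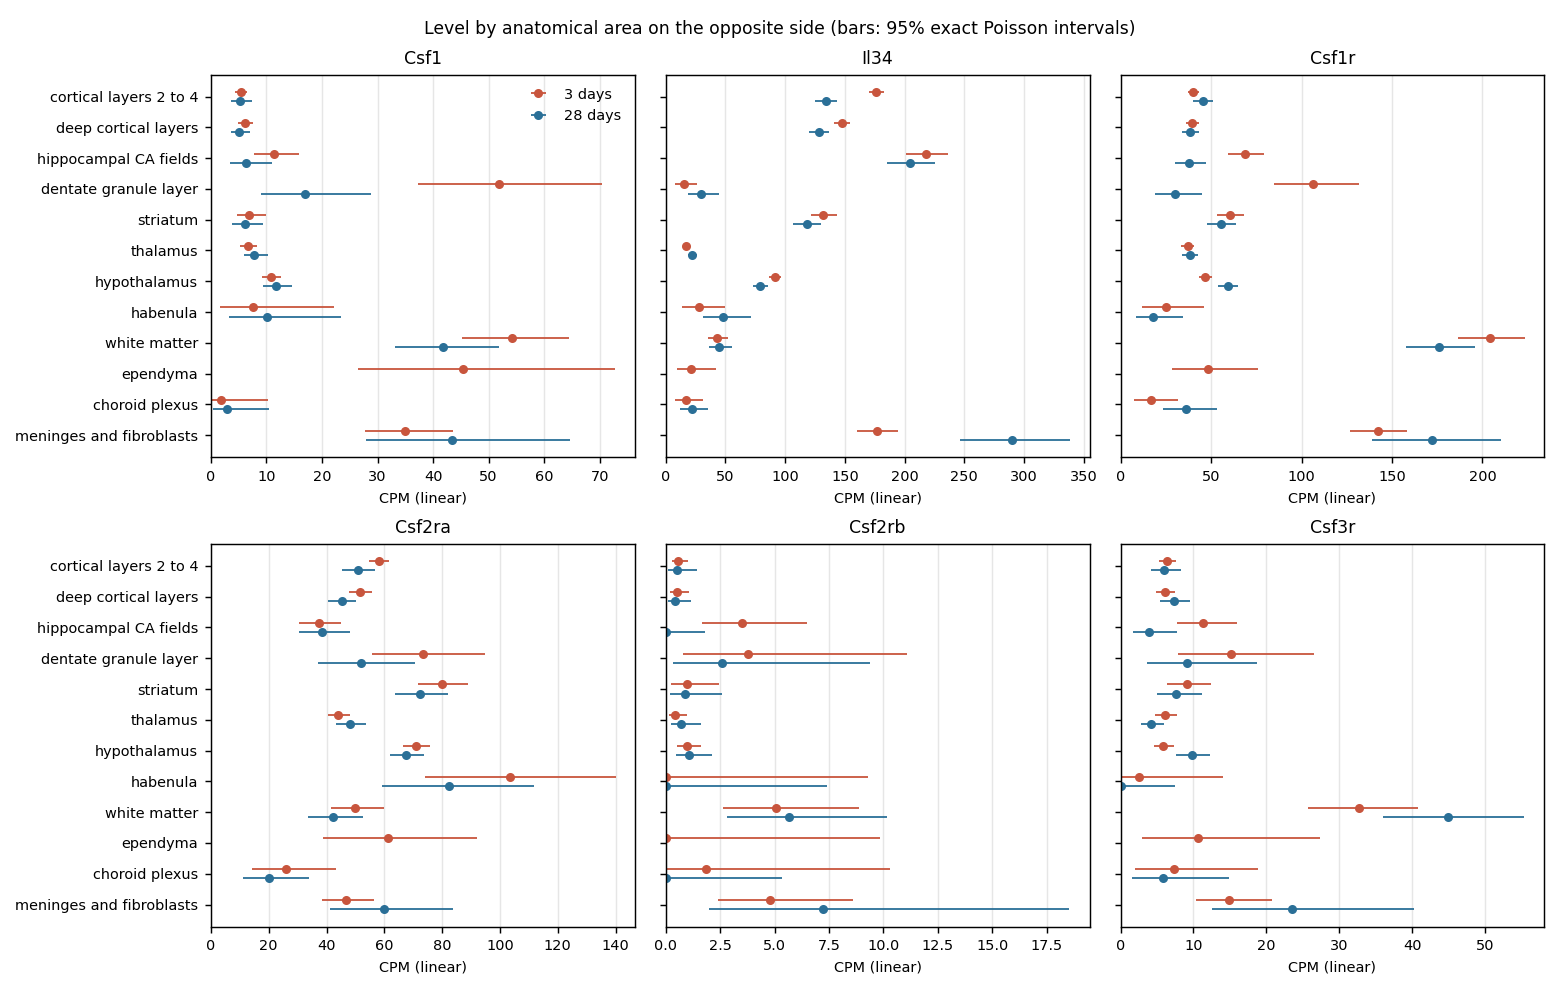
Level of each gene in CPM (x axis, linear, from 0) by anatomical area on the opposite side (y axis) in the 3-day section (red) and the 28-day section (blue); bars are 95% exact Poisson intervals and cover counting error only. Ependyma had too few UMIs on this side at 28 days, and 116 of its 155 tiles in that section lay in the lesion zone. Il34 stands between 118 and 290 CPM in cortex, CA fields, striatum and meninges and at 22.3 CPM or lower in thalamus, Csf1r and Csf3r peak in white matter, and Csf2ra varies least on this scale.

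The genes with the most similar maps were sought over 22 sums of UMIs in each section (each area on each side and the lesion zone) among 11576 genes with at least 500 UMIs in both sections. For Csf1r they were Inpp5d, a phosphatase of haematopoietic cells (Pearson r of log2 CPM 0.97 at 3 days and 0.97 at 28 days), the integrin gene Itgam (0.93 and 0.95) and Skap2 (0.92 and 0.94). For Csf3r they included Itgam (0.93 and 0.91) and Nckap1l (0.91 and 0.92). For Csf1 they were the metallothionein gene Mt2 (0.88 and 0.90), the astrocyte filament gene Gfap (0.88 and 0.88) and Pmp22 (0.85 and 0.86). For Il34 they were Pde1a (0.75 and 0.79), the serotonin receptor gene Htr2a (0.70 and 0.71) and the receptor kinase gene Kit (0.70 and 0.73). For Csf2ra they were Marcks (0.80 and 0.77), Dbnl (0.76 and 0.73) and Pou2f2 (0.72 and 0.79). The sums share libraries and differ in depth, so these coefficients are descriptions. Between members, Csf1r and Csf3r had r of 0.87 and 0.85, Csf1 and Csf1r 0.84 and 0.77, Il34 and Csf1r 0.28 and 0.17, and Csf2ra and Csf1r 0.23 and 0.30.

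Next, the sides were compared as a whole. Csf1 stood at 20.9 CPM (19.4 to 22.4) on the injured side and 9.96 CPM (9.29 to 10.7) on the opposite side at 3 days, and at 21.9 CPM (20.4 to 23.5) and 9.74 CPM (8.85 to 10.7) at 28 days. Csf1r stood at 96.4 CPM (93.3 to 99.6) and 54.4 CPM at 3 days and at 128 CPM (124 to 132) and 54.7 CPM at 28 days. Csf3r stood at 16 CPM (14.8 to 17.4) and 8.29 CPM (7.68 to 8.93), then at 40.8 CPM (38.8 to 42.9) and 8.70 CPM (7.86 to 9.60). The opposite-side levels of these genes in the sections were alike, and each gene was higher on the injured side in both.

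Csf2rb stood at 3.59 CPM (3.01 to 4.25) on the injured side and 1.11 CPM (0.894 to 1.36) on the opposite side at 3 days, and at 5.23 CPM (4.52 to 6.02) and 0.974 CPM (0.708 to 1.31) at 28 days. Csf2ra stood at 64.3 CPM (61.8 to 66.9) and 56.9 CPM (55.3 to 58.5), then at 77.6 CPM (74.8 to 80.5) and 52.5 CPM (50.4 to 54.6). As log2 ratios of injured over opposite side at 3 and 28 days, Csf1 was 1.07 (0.92 to 1.21) and 1.17 (1.0 to 1.34), Csf1r 0.83 (0.76 to 0.89) and 1.23 (1.16 to 1.30), Csf3r 0.95 (0.79 to 1.11) and 2.23 (2.07 to 2.39), Csf2rb 1.69 (1.30 to 2.09) and 2.41 (1.95 to 2.93) and Csf2ra 0.18 (0.11 to 0.25) and 0.57 (0.49 to 0.64). Past a 2-fold excess were 2 of the 6 genes at 3 days (Csf1 and Csf2rb), where 10.5% of 16164 genes with at least 20 UMIs were past it, and 4 of the 6 at 28 days (Csf1, Csf1r, Csf2rb and Csf3r), where 6.43% of 15640 genes were. The 3-day call of Csf1 was lost in UMIs per bin, at 0.97 (0.82 to 1.11), and with TMM scaling, at 0.92, which left 1 of the 6. None of the 6 was 2-fold lower, against 2.12% and 0.582% of genes. The median of the 6 log2 ratios was 0.89 and 1.2, beside 0.14 and 0.04 over all genes.

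Il34 went the other way at 3 days. It stood at 72.8 CPM (70.1 to 75.6) on the injured side and 125 CPM (123 to 128) on the opposite side, a log2 ratio of -0.78 (-0.85 to -0.72). In the later section it stood at 105 CPM (101 to 108) and 99.8 CPM (96.9 to 103), a ratio of 0.069 (0.01 to 0.13) whose sign turned per bin (-0.093) and with the boundary moved 15 columns towards the opposite side (-0.043). With the zone left out and each remaining area of the injured side set against the same area of the opposite side, weighted by its UMIs, the ratio at 3 days was -0.045 (-0.13 to 0.04), and at 28 days 0.20 (0.13 to 0.28).

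The same area-standardised comparison was made for the other genes. It covered 77.0% of the UMIs of the injured side outside the zone at 3 days and 81.8% at 28 days, in 9 and 10 areas that had at least 100000 UMIs on both sides. Outside the zone Csf1r remained higher, with log2 ratios of 0.45 (0.36 to 0.54) and 0.25 (0.15 to 0.35), and so did Csf3r, with 0.53 (0.29 to 0.76) and 0.48 (0.23 to 0.73). Csf1 was higher at 3 days, 0.35 (0.15 to 0.54), and was -0.17 (-0.43 to 0.09) at 28 days. With the zone drawn more widely, at the 95th percentile, the Csf1 values were 0.13 (-0.10 to 0.36) at 3 days, no longer higher, and -0.39 (-0.67 to -0.11) at 28 days, lower beyond counting error. Csf2ra was 0.09 (-0.0047 to 0.19) and 0.08 (-0.02 to 0.18), and Csf2rb 0.11 (-0.57 to 0.79) and 0.23 (-0.52 to 0.98), from 32 and 30 UMIs.

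By area, Csf1r outside the zone was higher on the injured side beyond counting error in 6 of 9 areas at 3 days and in 5 of 10 at 28 days, and lower in 0 (8 and 4 areas per bin). At 3 days it was 66.5 CPM against 37.1 CPM in thalamus (log2 ratio 0.84, 0.65 to 1.04), 82.7 CPM against 39.7 CPM in deep cortical layers (1.06, 0.81 to 1.30) and 125 CPM against 60.3 CPM in striatum (1.06, 0.68 to 1.41). In the 28-day section Csf1r was 59.5 CPM against 38.1 CPM in thalamus (0.64, 0.38 to 0.91) and 66.2 CPM against 38.5 CPM in deep layers (0.78, 0.53 to 1.04). Hypothalamus did not differ beyond counting error, with 0.15 (-0.02 to 0.32) and -0.16 (-0.35 to 0.03). Csf3r was higher in 3 and 4 areas: thalamus had 13.9 CPM against 6.12 CPM (1.19, 0.73 to 1.65) at 3 days and 11.8 CPM against 4.2 CPM (1.49, 0.78 to 2.22) at 28 days. Csf1 was higher in 4 areas at 3 days, among them deep cortical layers with 18.2 CPM against 6.11 CPM (1.58, 1.0 to 2.13), and at 28 days in 0 areas, with 1 lower. The other areas at 3 days were meninges, striatum, from 12 and 29 UMIs, and choroid plexus, from 19 and 1 UMIs.

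Il34 within areas moved both ways. At 3 days it was lower in layers 2 to 4, 141 CPM against 176 CPM (-0.32, -0.59 to -0.06), and in hypothalamus, 79.7 CPM against 91.5 CPM (-0.20, -0.33 to -0.07), and higher in thalamus, 25.2 CPM against 17.1 CPM (0.56, 0.26 to 0.86). At 28 days it was higher in layers 2 to 4, 172 CPM against 134 CPM (0.36, 0.21 to 0.50), in deep layers, 162 CPM against 128 CPM (0.34, 0.18 to 0.49), and in hypothalamus, 95.2 CPM against 79.3 CPM (0.26, 0.11 to 0.42). It was lower in meninges, 201 CPM against 290 CPM (-0.53, -0.86 to -0.20), and in the dentate granule layer, from 2 and 23 UMIs. In UMIs per bin the tally of areas was different: at 3 days Il34 was higher in 5 areas (thalamus, striatum, choroid plexus, meninges and deep layers) and lower in 1, hypothalamus, with layers 2 to 4 at -0.21 (-0.49 to 0.04). At 28 days it was higher in 3 areas and lower in 3 per bin, the added one being striatum at -0.69 (-0.97 to -0.42). The sides of a section are not cut at the same position within an area, which was not tested as a part of these differences.

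The lesion zone was placed by phagocyte genes, so the height of receptors carried by phagocytes there is fixed in part by how the zone was drawn and is given as a description. Csf1r was 198 CPM (186 to 210) in the zone at 3 days and 373 CPM (359 to 388) at 28 days. Csf3r was 37.2 CPM (32.1 to 42.8) and 158 CPM (149 to 168), Csf2rb 17.8 CPM (14.4 to 21.9) and 21.7 CPM (18.4 to 25.3), and Csf2ra 91.6 CPM (83.5 to 100.3) and 158 CPM (149 to 168). Csf1 was 54.8 CPM (48.6 to 61.6) and 75.9 CPM (69.6 to 82.5), and Il34 68.8 CPM (61.8 to 76.3) and 55.6 CPM (50.3 to 61.3). At 28 days the zone held 13.1% of bins and 8.70% of UMIs, but 65.1% of the Csf2rb UMIs of the section, 59.4% of Csf3r, 43.3% of Csf1, 37.0% of Csf1r, 21.6% of Csf2ra and 4.74% of Il34. At 3 days it held 4.29% of UMIs, with 40.5% of Csf2rb, 17.6% of Csf1, 14.9% of Csf3r, 12.6% of Csf1r, 6.63% of Csf2ra and 2.70% of Il34.

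Over the opposite side, the zone had log2 ratios at 3 and 28 days of 4.01 (3.57 to 4.44) and 4.46 (3.98 to 4.99) for Csf2rb, 2.17 (1.93 to 2.40) and 4.18 (4.02 to 4.35) for Csf3r, 2.46 (2.26 to 2.66) and 2.96 (2.78 to 3.15) for Csf1, 1.86 (1.76 to 1.96) and 2.77 (2.69 to 2.85) for Csf1r, 0.69 (0.55 to 0.82) and 1.59 (1.49 to 1.70) for Csf2ra and -0.87 (-1.02 to -0.71) and -0.84 (-1.0 to -0.70) for Il34. At 3 days 337 of the 571 zone tiles had a white matter profile. White matter of the opposite side then had 204.3 CPM of Csf1r, 54.3 CPM of Csf1 and 32.6 CPM of Csf3r, each within the interval of the zone level in CPM. Per bin the zone stood higher: per 1000 bins it held 120 Csf1r and 33.3 Csf1 UMIs, against 57.4 and 15.2 in opposite white matter. Its Csf2rb, at 5.09 CPM (2.63 to 8.89), and Csf2ra, at 50.0 CPM (41.4 to 59.9), were below those of the zone. So was its Il34, at 43.2 CPM (35.3 to 52.5), so that Il34 in the 3-day zone was lower than over the whole opposite side but higher than in opposite white matter, and the 73.5 CPM on the rest of the injured side lay within the interval of the zone level. At 28 days opposite white matter was below the zone for all of these, with 176 CPM of Csf1r, 41.8 CPM of Csf1, 44.9 CPM of Csf3r, 5.68 CPM of Csf2rb (2.83 to 10.2) and 42.3 CPM of Csf2ra, while its Il34, 44.9 CPM (36.0 to 55.4), had an interval that overlapped that of the zone. Against the whole opposite side, past 2-fold higher were 4 of the 6 genes at 3 days (Csf1, Csf1r, Csf2rb, Csf3r), beside 21.8% of 15391 genes, and 5 at 28 days, with Csf2ra, beside 17.4% of 14846 genes. None was 2-fold lower in CPM, where 11.1% and 10.8% of genes were. Il34 passed that mark in UMIs per bin, at -1.63 (-1.79 to -1.48) and -1.51 (-1.66 to -1.36), against opposite cortical tiles, at -1.25 and -1.23, and at 3 days with TMM scaling, at -1.13, and with the zone placed by Gfap, Vim, Serpina3n, Timp1 and S100a6, at -1.40. It was -0.33 against the mirrored zone at 28 days. Against the mirrored zone at 3 days Csf2ra was past 2-fold higher. In UMIs per bin the ratio of Csf2ra was -0.074 (-0.21 to 0.06) in the 3-day section and 0.93 (0.82 to 1.03), short of 2-fold, in the 28-day one, and those of Csf1r were 1.10 (1.0 to 1.2) and 2.10 (2.02 to 2.18). A bin of the zone held 607 UMIs on average at 3 days and 528 at 28 days, against 1030 and 839 on the opposite side. More cells of a type and more RNA per cell cannot be told apart in such sums.

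**Figure D3:**
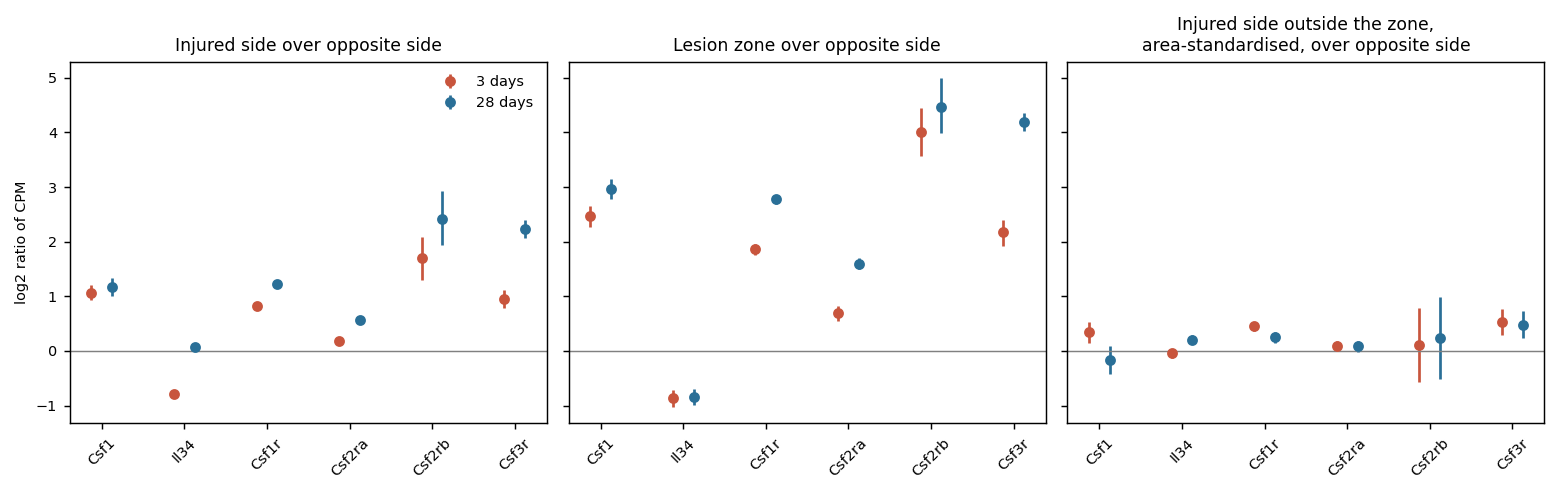
Log2 ratio of CPM (y axis) for the 6 genes in the 3-day section (red) and the 28-day section (blue), for the injured side over the opposite side, the lesion zone over the opposite side, and the injured side outside the zone over the same areas of the opposite side; bars are 95% intervals of counting error. Il34 lies below 0 in the zone against the whole opposite side in both sections, though its 3-day zone level was above that of opposite white matter, and the ratios of the other genes outside the zone shrink to 0.53 or less.

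Relative to Csf1r the other receptors did not keep pace alike. There were 15.2 Csf3r UMIs per 100 Csf1r UMIs (14 to 16.5) on the opposite side at 3 days, 15.8 (14.2 to 17.5) on the injured side outside the zone and 18.8 (16 to 21.9) in the zone. At 28 days the values were 15.9 (14.3 to 17.7), 18.4 (16.4 to 20.5) and 42.3 (39.5 to 45.4). Of the 3 pooled places at 28 days, the zone stood above the others beyond counting error. Csf2rb went from 2.04 per 100 Csf1r UMIs (1.64 to 2.51) on the opposite side to 9.0 (7.19 to 11.2) in the zone at 3 days, and from 1.78 (1.29 to 2.40) to 5.80 (4.90 to 6.82) at 28 days. Csf2ra went the opposite way, from 105 (100.4 to 109) to 46.3 (41.4 to 51.7) and from 96.0 (90.7 to 102) to 42.4 (39.5 to 45.5). These directions hold against the whole opposite side. Opposite white matter, a reference added after these values were seen, had 24.5 Csf2ra UMIs per 100 Csf1r UMIs (19.8 to 30) at 3 days and 24.0 (18.7 to 30.7) at 28 days, so that against it the zone value was higher. Its Csf3r value was 16 (12.4 to 20.4) and 25.5 (19.9 to 32.4), overlapping the zone at 3 days and below it at 28 days. Its Csf2rb value was 2.49 (1.28 to 4.39), below the zone, and 3.23 (1.60 to 5.85), overlapping it.

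Csf2rb2, which encodes a chain used with IL-3 in the mouse, had 42 UMIs in the zone and 50 opposite at 3 days, against 82 and 19 at 28 days. Its zone log2 ratios of 3.76 (3.13 to 4.38) and 4.74 (4.03 to 5.57) were near those of Csf2rb. The zone also held other cells. A list of 6 microglia genes summed to 903 CPM in the zone against 243 CPM opposite at 3 days, with 5 of 6 genes higher, and to 1646 against 232 CPM at 28 days, with 6 of 6 higher. The list of monocytes and recruited macrophages, of which 5 of 6 genes were in the probe set, summed to 210 against 2.54 CPM and to 33.5 against 1.88 CPM. All 5 were higher with intervals apart at 3 days, and at 28 days all but Arg1 (0.559 against 0.398 CPM) and Chil3 (0.838 against 0.244 CPM), whose intervals overlapped. The astrocyte list summed to 5041 against 1099 CPM at 3 days and 8232 against 992 CPM at 28 days. Gfap made up 3490 and 5300 CPM of the zone sums, and Gja1 at 3 days was 213 against 209 CPM with overlapping intervals. The oligodendrocyte list summed to 5304 against 1368 CPM and 3669 against 1932 CPM. The neutrophil list summed to 55.4 against 1.17 CPM and to 68.3 against 4.12 CPM, mostly S100a8 and S100a9, with 6 of 6 genes higher in both sections. Cxcr2, from 6 and 16 zone UMIs, was 1.16 against 0.0844 CPM and 2.24 against 0.0885 CPM, with intervals apart. The defining gene Ly6g had 1 UMI in the zone at 3 days and 4 at 28 days, and its intervals overlapped in both sections. So did those of Retnlg in both sections and Mmp8 at 28 days. The neuron list summed to 1975 CPM in the zone against 6486 CPM opposite at 3 days, and to 2434 against 6760 CPM later. The part of these lists in the levels of the 6 genes was not tested.

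Distance from the zone was followed on the injured side in 4 bands, each set against the same areas of the opposite side. The areas used covered 62.8% to 76.9% of the UMIs of a band at 3 days and 77.1% to 89.9% at 28 days. For Csf1r at 3 days the log2 ratio was 0.67 (0.50 to 0.84) within 250 µm, 0.76 (0.58 to 0.95) from 250 to 500 µm, 0.53 (0.35 to 0.72) from 500 to 1000 µm and 0.52 (0.36 to 0.68) from 1000 to 2000 µm. At 28 days it was 0.94 (0.77 to 1.10), 0.31 (0.14 to 0.48), 0.01 (-0.16 to 0.19) and -0.10 (-0.28 to 0.07). The excess of Csf1r was beyond counting error in all 4 bands of the 3-day section and in the bands up to 500 µm in the 28-day section. At 3 days the zone ran into the edge of the array, so distance there counts from its captured part only. The reach in the sections therefore cannot be set side by side.

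Csf3r at 28 days was likewise above 0 beyond counting error up to 500 µm, with 1.41 (1.05 to 1.76), 1.01 (0.64 to 1.38), -0.41 (-0.91 to 0.10) and -0.27 (-0.72 to 0.19). At 3 days it was lowest next to the zone, at -0.12 (-0.65 to 0.41), then 0.66 (0.17 to 1.15), 1.04 (0.64 to 1.45) and 0.80 (0.40 to 1.21). Csf1 at 3 days was 0.73 (0.39 to 1.07) in the first band, then 0.35 (-0.12 to 0.82), 0.17 (-0.29 to 0.62) and 0.19 (-0.18 to 0.56), with intervals that overlapped that of the first band. At 28 days it was 0.67 (0.25 to 1.08), -0.32 (-0.80 to 0.15), -0.12 (-0.55 to 0.32) and -0.77 (-1.25 to -0.29). Il34 had -0.01 (-0.20 to 0.18), -0.22 (-0.42 to -0.02), -0.26 (-0.47 to -0.05) and 0.01 (-0.14 to 0.15) at 3 days. At 28 days it had -0.09 (-0.27 to 0.09), 0.09 (-0.04 to 0.22), 0.33 (0.21 to 0.46) and 0.33 (0.22 to 0.45). Csf2ra was above 0 beyond counting error in the first band at 28 days, by 0.37 (0.18 to 0.57), and at 3 days from 250 to 500 µm, by 0.26 (0.03 to 0.48), and from 500 to 1000 µm, by 0.21 (0.00 to 0.41).

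**Figure D4:**
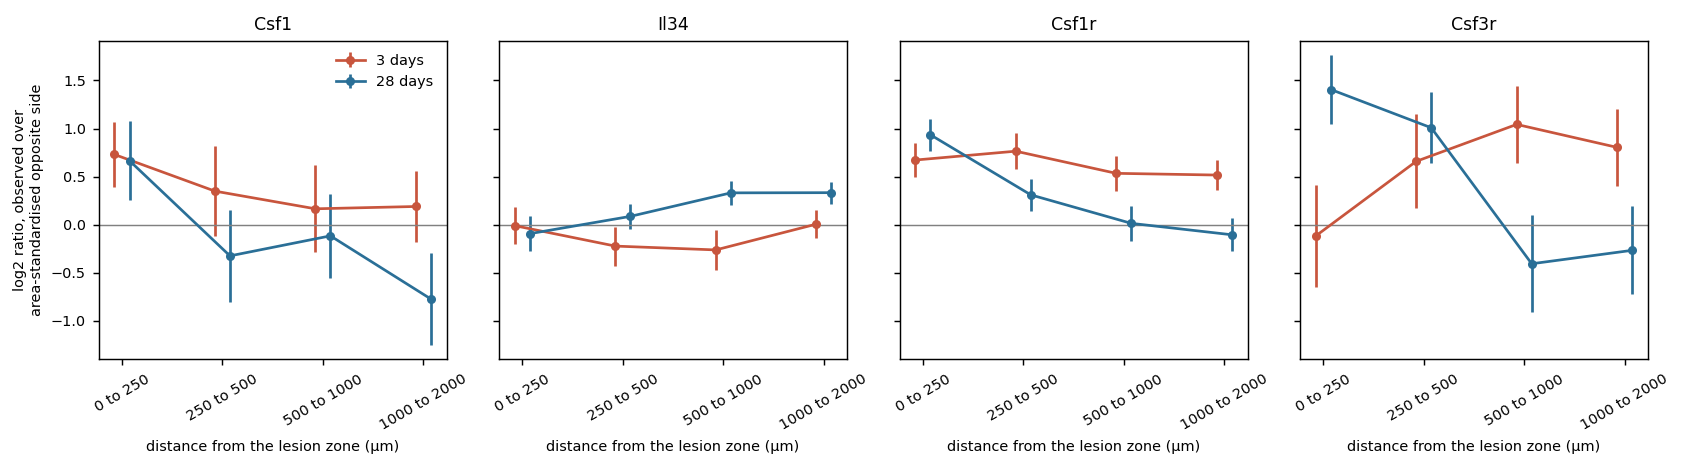
Log2 ratio of observed UMIs over those expected from the same areas of the opposite side (y axis) in 4 bands of distance from the lesion zone in µm (x axis) on the injured side, for Csf1, Il34, Csf1r and Csf3r at 3 days (red) and 28 days (blue); bars are 95% intervals of counting error. Csf1r stays at 0.52 or above in every band at 3 days and falls from 0.94 to about 0 at 28 days. At 3 days distance counts from the captured part of the zone only.

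To see with which cell type lists the transcripts shared bins, bins were thinned to 300 UMIs. Those with at least 1 UMI of a list were set against those with none. Bins were pooled over all areas of a side or of the zone, so the ratios mix differences between areas with those within an area. White matter against cortex is such a difference, and its part in these ratios was not tested. On the opposite side at 3 days Csf1r was 258 CPM in the 5504 bins with microglia list UMIs and 55.1 CPM in the rest, a log2 ratio of 2.23 (2.06 to 2.39). It was 2.17 (1.95 to 2.38) at 28 days. In the zone the same ratio was smaller, 1.35 (1.07 to 1.62) and 0.74 (0.57 to 0.91). Csf3r had 2.22 (1.79 to 2.63) and 2.50 (1.92 to 3.04) and Csf2rb 2.41 (1.05 to 3.55) and 2.84 (1.23 to 4.23), the latter from 9 and 7 UMIs. Csf2ra did not: its ratio was 0.14 (-0.18 to 0.44) and -0.09 (-0.57 to 0.32). Csf2ra followed none of the microglia, endothelial or mural lists of that side beyond counting error in either section.

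Csf1r and Csf3r also shared bins with each other. On the opposite side Csf3r was higher in bins with a Csf1r UMI by 2.39 (1.67 to 2.98) at 3 days and 2.21 (1.12 to 3.05) at 28 days, from 23 and 11 UMIs. In the 28-day zone, where Csf1r UMIs were in many bins, the ratio was 1.11 (0.78 to 1.42), from 104 UMIs, and Csf2ra was likewise higher in bins with a Csf1r UMI, by 0.77 (0.40 to 1.11), from 82 UMIs. In that zone Csf2ra was higher in microglia-list bins too, 217 CPM against 150 CPM (0.53, 0.27 to 0.80), while at 3 days its ratio was 0.17 (-0.38 to 0.66). Csf3r in the zone had 1.27 (0.59 to 1.93) in microglia-list bins at 3 days and 1.03 (0.78 to 1.29) at 28 days. In bins with neutrophil-list UMIs it rested on 2 UMIs at 3 days and 7 at 28 days, with 1.84 (-1.55 to 3.42) and 0.82 (-0.60 to 1.78).

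The ligands were compared by list in the same way. On the opposite side Csf1 was lower in bins with neuron-list UMIs, by log2 ratios of -1.14 (-1.49 to -0.77) and -1.07 (-1.57 to -0.57), and higher in bins with oligodendrocyte-list UMIs, by 1.11 (0.76 to 1.47) and 1.01 (0.52 to 1.52), and with astrocyte-list UMIs, by 0.65 (0.28 to 1.01) and 0.94 (0.43 to 1.43). In the zone the oligodendrocyte ratio of Csf1 was 0.87 (0.27 to 1.54) in the earlier section and 0.24 (-0.15 to 0.64) in the later one, and the microglia ratio 0.13 (-0.50 to 0.71) and 0.65 (0.27 to 1.03). Fibroblast-list bins outside the zone at 3 days had 68.7 CPM of Csf1 on the injured side, against 15.9 CPM in the rest (2.14, 1.40 to 2.76).

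Il34 was a little higher in neuron-list bins of the opposite side, by 0.19 (0.05 to 0.34) and 0.25 (0.05 to 0.45), and lower in oligodendrocyte-list bins, by -0.81 (-0.96 to -0.66) and -0.48 (-0.66 to -0.30). It was also higher in bins with mural-list UMIs, by 0.53 (0.30 to 0.74) and 0.88 (0.60 to 1.15), and with fibroblast-list UMIs, by 0.71 (0.38 to 1.02) and 1.35 (0.88 to 1.76). In the lesion zone Il34 was 162 CPM in mural-list bins against 48.4 CPM in the rest at 3 days (1.77, 0.98 to 2.44) and 89.4 against 41.0 CPM at 28 days (1.15, 0.34 to 1.84). Fibroblast-list bins of the 28-day zone had 149 CPM against 40.8 CPM (1.91, 0.98 to 2.66), from 15 UMIs, and those of the 3-day zone had 69.8 against 54.7 CPM (0.43, -0.90 to 1.38), from 8 UMIs. In microglia-list bins of the 28-day zone Il34 was lower, at -1.12 (-1.82 to -0.50) in thinned bins and -0.46 in bins as deposited.

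**Figure D5:**
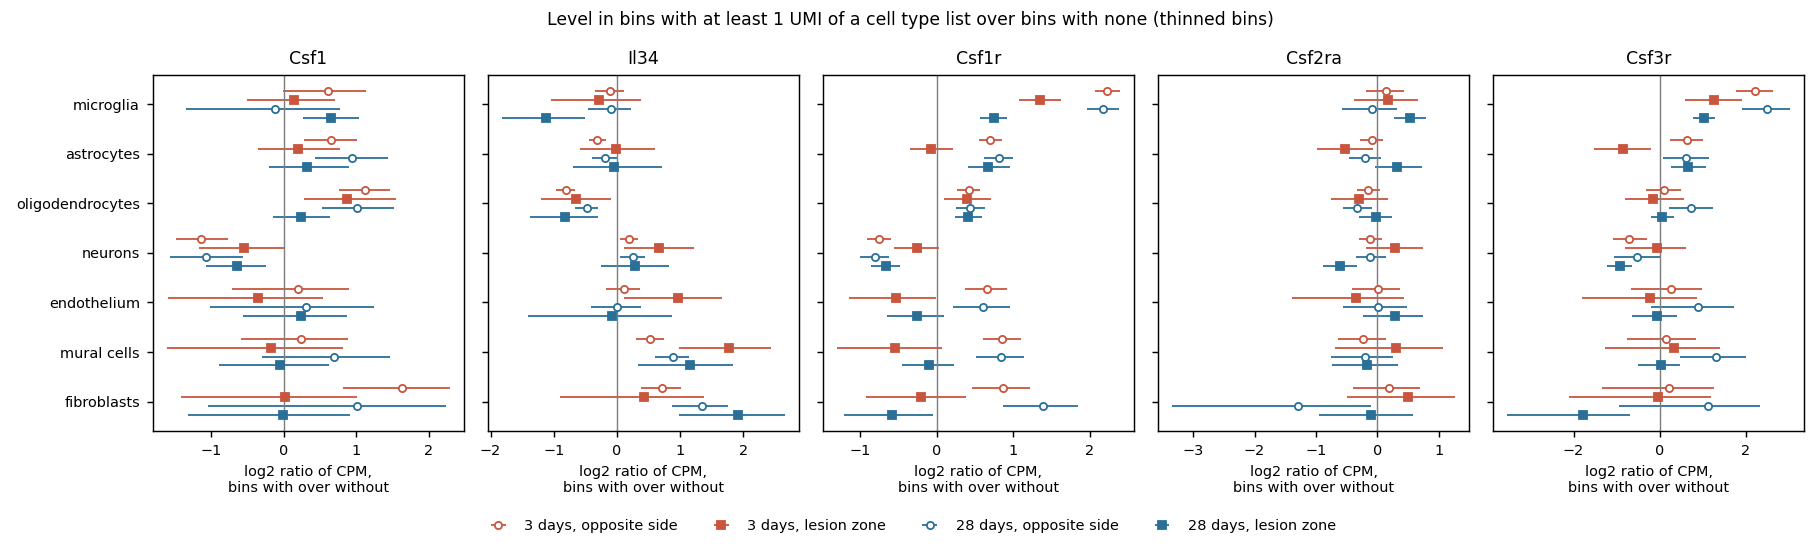
Log2 ratio of CPM between bins with and without at least 1 UMI of a cell type list (x axis) for 7 lists (y axis), in bins thinned to 300 UMIs, on the opposite side (open circles) and in the lesion zone (filled squares) at 3 days (red) and 28 days (blue); bars are 95% intervals of counting error. Csf1r and Csf3r are above 2 for the microglia list on the opposite side, Csf2ra is near 0 there, and Il34 is above 0 for mural cells in all 4 sets of bins.

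The other genes of the pathway were taken from a list of 38 ligands, receptor partners, myeloid transcription factors and signalling proteins. Ligands of the other receptors were almost without counts: Csf2 had 4 UMIs on the opposite side at 3 days and 2 at 28 days, Csf3 had 1 there in each section, neither had more than 1 in the zone, and with Il3 and Il5ra these were the 4 genes under 20 UMIs. Of the 34 others, 24 were past 2-fold higher in the zone at 3 days, beside 21.8% of genes, and 25 at 28 days, beside 17.4%, with 24 of them in both and Egr2 at 28 days. None was 2-fold lower. The list's median log2 ratio was 2.12 and 1.95, and that of all genes 0.15 and -0.01. Many listed genes are carried by the phagocytes that placed the zone.

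Among the factors that drive Csf1r transcription, Spi1, which encodes PU.1, had log2 ratios of 3.10 and 3.77, Runx1 3.90 and 3.90, Irf8 2.87 and 4.39 and Cebpa 2.44 and 3.40. Of genes acting below the receptor, the adaptor Tyrobp had 2.90 and 4.82, the phosphatases Ptpn6 2.92 and 4.35 and Inpp5d 2.59 and 3.40 and the PI3 kinase subunit Pik3cg 2.23 and 3.24. Others did not pass 2-fold, among them Grb2 with -0.24 and -0.17 and Cbl with 0.24 and 0.11. Nor did Pik3r1, with 0.37 and 0.17, Fyn, with -0.02 and 0.28, and Stat5b, with 0.12 and 0.24. The feedback inhibitor Socs3 had 4.03 and 3.31, and Sdc1, a proteoglycan that can bind IL-34, 3.99 and 2.02. Sdc1 stood at 39.5 CPM in the zone at 3 days and 9.22 CPM at 28 days, against 2.48 and 2.28 CPM opposite. Ptprz1, a further binding partner of IL-34 on neural cells, did not pass 2-fold, with 0.53 and 0.54.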

How the data were processed

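The authors deposited raw UMI counts per gene and 16 µm bin, made with Space Ranger (spaceranger 4.0.1 per the file headers) from probe-based Visium HD libraries and the build mm10 (submitters' processing notes), with no normalization. Counts were summed over areas and scaled to CPM with Python 3.11.15, numpy 2.4.6, pandas 2.3.3 and scipy 1.17.1. Bins under 100 UMIs were left out. The lesion zone was tiles whose share of UMIs in 6 phagocyte genes, averaged over 5 by 5 tiles, exceeded the 99th percentile of the opposite side, in patches of at least 25 tiles. Areas were assigned to tiles from marker genes, starting from the 30 tiles highest in each area's markers (10 for small areas), then by likelihood against the profiles of these tiles. Left out of the profiles were the 6 genes, the phagocyte and pathway genes, and Gfap, Vim, Serpina3n, Timp1 and S100a6. So were the lists of microglia, other immune cells, astrocytes, endothelium and mural cells. The lists of oligodendrocytes, their precursors, fibroblasts and neurons were not left out. Tiles whose own markers were below 1.2-fold stayed unassigned (17.1% and 20.9%). Cortical layers 5 and 6 were merged, and the 1.2-fold limit and a mean without the highest and lowest marker were set after the area map had been seen. In the 3-day zone 337 of 571 tiles had a white matter profile, and in the 28-day zone 417 of 903 were unassigned, so areas are used outside the zone.

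Log2 ratios have a pseudocount of 0.5 UMI, with intervals from the exact conditional binomial distribution; area-standardised ratios have an approximate interval from the Poisson variances of the observed and expected counts. Genes needed 20 UMIs over both areas for the counts past 2-fold. Bins under 300 UMIs were left out of the thinned comparison, 19.6% and 32.5% of zone bins and 11.1% and 17.7% of opposite bins. The rule for named genes was all 6 genes, pathway genes past 2-fold in the zone with at least 50 UMIs and the 3 genes most like each member. The pathway genes were at most 12 by size, taking the larger of the sections. The genes most like a member needed at least 500 UMIs in each section. Egr2, Ptprz1, Csf2, Csf3, Il3, Il5ra, Grb2, Cbl, Pik3r1, Fyn and Stat5b were added after their values were seen. Some genes that this rule names are not reported here. The 6 genes were taken by symbol with no value in the rule, but they, the lists and the bands were chosen with earlier results of these data known. The ratio code was tested on simulated counts. edgeR 4.0.16 (R 4.3.3) gave TMM factors for an alternative. Promoter windows came from RefSeq, GRCm38.p6.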

Additional observations from a re-analysis of the deposited data

Results flagged for a closer look

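The side ratio of Il34 was below 0 in the 3-day section (log2 ratio -0.78) and above 0 in the 28-day section (0.069), with both intervals clear of 0. Each time point had 1 section and the difference between the sections was not tested. The 28-day value turned sign under 2 alternatives given with it in the text, and the area-standardised value outside the zone was -0.045 at 3 days.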

How the results depend on the processing

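Each condition had 1 section, so no replicate could be left out, and intervals cover counting error only. No paired analysis was possible because the time points have 1 section each and no shared replicate. Of the results recomputed under each alternative, 132 values stayed within the interval of the value given in the text, 86 moved beyond it, and 6 that were called turned sign. No minimum per bin, tiles of 2 by 2 bins and a minimum of 50 UMIs for the pathway counts moved none of them. All values below are log2 ratios, and the cause of each move was not tested. TMM lowered every log2 ratio by one amount, 0.15 (side) and 0.26 (zone) at 3 days and 0.05 and 0.12 at 28 days. UMIs per bin for areas and for the area-standardised ratio was chosen after seeing the data. In UMIs per bin in place of CPM the side ratio was at 3 days Il34 -0.89, Csf1r 0.72, Csf2ra 0.076 and at 28 days Il34 -0.093, Csf1r 1.07, Csf2ra 0.40, Csf3r 2.07. In UMIs per bin in place of CPM the zone ratio was at 3 days Csf1 1.70, Il34 -1.63, Csf1r 1.10, Csf2ra -0.074, Csf2rb 3.24, Csf3r 1.41 and at 28 days Csf1 2.29, Il34 -1.51, Csf1r 2.10, Csf2ra 0.93, Csf2rb 3.79, Csf3r 3.51. In UMIs per bin in place of CPM the area-standardised ratio outside the zone was at 3 days Csf1 0.58, Il34 0.12, Csf1r 0.68, Csf2ra 0.27, Csf3r 0.79. In UMIs per bin in place of CPM the ratio of white matter over layers 2 to 4 was at 3 days Csf1 0.76, Il34 -4.59, Csf1r -0.22, Csf2ra -2.78, Csf2rb 0.55, Csf3r -0.19 and at 28 days Csf1 0.33, Il34 -4.21, Csf1r -0.68, Csf2ra -2.90, Csf2rb 0.72, Csf3r 0.26. With TMM scaling the side ratio was at 3 days Csf1 0.92, Il34 -0.93, Csf1r 0.68, Csf2ra 0.029. With TMM scaling the zone ratio was at 3 days Csf1 2.20, Il34 -1.13, Csf1r 1.60, Csf2ra 0.43, Csf3r 1.91 and at 28 days Csf1r 2.65, Csf2ra 1.47. In bins as deposited the zone ratio in microglia-list bins was at 28 days Il34 -0.46. With the boundary 15 columns towards the injured side the side ratio was at 3 days Il34 -0.65 and at 28 days Il34 0.17, Csf1r 1.32. With it 15 columns towards the opposite side the side ratio was at 3 days Il34 -0.85, Csf1r 0.72 and at 28 days Il34 -0.043, Csf1r 1.11, Csf3r 2.06. Against opposite cortical tiles the zone ratio was at 3 days Csf1 3.26, Il34 -1.25, Csf1r 2.31, Csf2rb 4.98, Csf3r 2.59 and at 28 days Csf1 3.86, Il34 -1.23, Csf1r 3.17, Csf2ra 1.73, Csf2rb 5.49, Csf3r 4.56. Against the zone mirrored across the boundary the zone ratio was at 3 days Csf1 1.62, Csf1r 1.39, Csf2ra 1.06, Csf2rb 2.90, Csf3r 1.74 and at 28 days Il34 -0.33, Csf3r 3.95. With a strip of 20 columns either side of the boundary left out the side ratio was at 3 days Csf1 1.22, Csf1r 0.92 and at 28 days Csf1r 1.30, Csf2ra 0.66. With the zone at the 95th percentile the zone ratio was at 3 days Csf1 2.26, Il34 -0.52, Csf1r 1.68, Csf2ra 0.42, Csf2rb 3.37, Csf3r 1.70 and at 28 days Csf1 2.68, Csf1r 2.50, Csf2ra 1.33, Csf3r 3.84. With the zone at the 95th percentile the area-standardised ratio outside the zone was at 3 days Csf1 0.13. With the zone placed by Gfap, Vim, Serpina3n, Timp1 and S100a6 the zone ratio was at 3 days Csf1 2.74, Il34 -1.40, Csf1r 1.98. Values that turned sign were Csf1r at both times and Csf3r at 3 days in white matter over layers 2 to 4, Csf2ra in the 3-day zone and Il34 between the sides at 28 days. The sparse counts limit Csf2rb most.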
